A study of Mus musculus with 6 samples.

Results

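The genes described here encode E-cadherin, the catenins and the actin-linking and scaffold proteins of its junction. They are 8 of the 57126 genes counted, *Cdh1*, *Ctnnb1*, *Jup*, *Ctnnd1*, *Ctnna1*, *Vcl*, *Afdn*, and *Tjp1*, and were chosen by name, with their counts in the comparison below already known. Their values in that comparison are therefore a description, and no p is given for them. All 8 had at least 1 count in at least 3 samples and were tested.

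The RNA came from CD8+ T cells of OT-I mice, whose transgenic T cell receptor recognizes an ovalbumin peptide presented by H-2Kb. Cells from lymph nodes and spleens were stimulated with nano-aAPCs, which are iron oxide nanoparticles carrying the peptide-MHC complex and anti-CD28, and were harvested on day 6. TEff cells (3 samples) grew with mIL-2, and TRM-like cells (3 samples), an in vitro model of tissue-resident memory T cells, grew with mIL-2, mIL-15, and mTGF-β. The cytokine groups are the only contrast, so that any effect of IL-15 and of TGF-β cannot be told apart, and the labels do not say whether replicates came from separate mice or cultures.

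E-cadherin is a calcium-dependent adhesion protein that binds E-cadherin on a neighboring cell. Its cytoplasmic tail binds p120 catenin and either β-catenin or plakoglobin, and β-catenin binds α-catenin, which reaches actin directly and through vinculin, afadin, and ZO-1. Junctions of this kind are best known from epithelium. On lymphocytes, E-cadherin of other cells is recognized by the integrin CD103-β7 and by KLRG1, and β-catenin that is not held at a cadherin can enter the nucleus and act with TCF1 and LEF1.

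Total counts were 18319013 to 21960760 in the TEff samples and 21178756 to 23622621 in the TRM-like samples. Means ± SD below are over the 3 samples of a group. A few samples stood apart from the rest of their group. TRM-like replicates 1 and 2 had counts on 730 and 782 of 1193 olfactory receptor genes, which are silent in T cells, against 34 to 42 in the other 4 samples. A low count in those 2 samples can lie at that background, and the counts it would give to a gene of the same length are stated below where they matter. TRM-like replicate 3 departed from the other TRM-like samples at many genes, and values without it are given for several of the calls below that they change.

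*Cdh1* (ENSMUSG00000000303), the gene of E-cadherin, spans chromosome 8 from 107329941 to 107396880 on the plus strand of GRCm39. The 208 bases just before its first annotated base are shown because they hold the E-boxes, CACCTG on either strand, that the Snail and ZEB repressors of E-cadherin are known to bind. The capitals mark 2 adjoining E-boxes, at bases -69 to -64 and -63 to -58 from the start of the canonical transcript.

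Cdh1, GRCm39 chr8:107329733-107329940, plus strand: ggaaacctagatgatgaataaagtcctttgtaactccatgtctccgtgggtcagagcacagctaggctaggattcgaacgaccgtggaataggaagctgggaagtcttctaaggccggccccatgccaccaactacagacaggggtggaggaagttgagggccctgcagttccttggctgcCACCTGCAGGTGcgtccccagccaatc

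In the 250 bases before the canonical start, *Cdh1* had 3 matches to CACCTG, the last at -13 to -8. Of 21770 promoters of the same length, 17.7% held at least 1 match and 2.07% held at least 2. *Afdn* had 1 match, at -76 to -71, and the other 6 junction genes had none. The SMAD-binding letters CAGAC, on either strand, occurred once in the *Cdh1* window, at -115 to -111, in 4 of the 8 windows and in 41.3% of all promoters. The letters CTTTGA, one form of the sequence that TCF and LEF factors bind, on either strand occurred in none of the 8 windows and in 14.1% of all promoters. Other forms of that sequence were not searched, so these windows may still hold some. A match in letters does not show that a site is used.

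*Cdh1* was close to silent in the TEff cells, with 10, 14, and 11 counts, and had 1671, 1461, and 1436 counts in the TRM-like cells. Scaled to library size after TMM normalization (CPM), this was 0.457, 0.709, and 0.608 against 72.9, 63.8, and 66.2. The 3 TRM-like samples lay close together and far above all TEff samples, and replicate 3 did not stand apart. The means were 0.591 ± 0.127 and 67.6 ± 4.69 CPM (SD, n = 3 each), a ratio of 114, and the log2 fold change fitted by edgeR was 6.83 (standard error 0.20). These are bulk samples, in which more cells with *Cdh1* RNA and more *Cdh1* RNA per cell cannot be told apart.

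Of the 3 catenins that bind the cadherin tail, 0 were called, beside 1.52% of all genes called higher and 1.48% called lower. At those shares 0 of 3 is no result about the catenins. *Ctnnb1* (ENSMUSG00000006932, chromosome 9 from 120757422 to 120789579), the gene of β-catenin, had 6277, 5315, and 5508 counts in the TEff cells and 8014, 8130, and 7800 in the TRM-like cells. It was abundant in every sample, at 287 ± 17.7 and 355 ± 5.09 CPM (SD, n = 3 each). All TRM-like samples were above all TEff samples, but the log2 fold change was 0.31 (standard error 0.13), below the 0.58 that a call requires. By adjusted p alone, without that limit, *Ctnnb1* was not called either.

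*Jup* (ENSMUSG00000001552, chromosome 11 from 100259784 to 100291103) encodes plakoglobin, which takes the place of β-catenin in desmosomes and in some cadherin complexes. It had 30, 10, and 18 counts in the TEff cells and 37, 38, and 3 in the TRM-like cells. The groups overlapped, with the lowest value in TRM-like replicate 3. The log2 fold change was 0.25 (standard error 0.69), and 0.75 (standard error 0.37) without that sample.

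*Ctnnd1* (ENSMUSG00000034101, chromosome 2 from 84425959 to 84489326), the gene of p120 catenin, which keeps E-cadherin at the cell surface, was hardly detected. Its counts were 2, 7, and 6 in the TEff cells and 4, 8, and 3 in the TRM-like cells. The background on silent genes would give it 3.44 and 3.72 counts in TRM-like replicates 1 and 2, so that its level there was not clearly above that background. In the GENCODE annotation, 4482 of its 11919 exon bases also belong to *Gm28635* on the same strand, which was listed at 0 in all 6 samples. How reads on both genes were counted is not given in the sources used here, and the low counts of *Ctnnd1* are uncertain for that reason.

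Of the genes that link the complex to actin, *Afdn* was higher, *Vcl* was lower, and *Ctnna1* was not called. *Ctnna1* (ENSMUSG00000037815, chromosome 18 from 35226033 to 35387833), the gene of αE-catenin, was at 57.5, 52.0, and 59.3 CPM in the TEff cells and at 72.5, 71.4, and 82.3 CPM in the TRM-like cells. The groups did not overlap, and the log2 fold change of 0.42 (standard error 0.13) was below the limit for a call. By adjusted p alone *Ctnna1* was not called either. *Afdn* (ENSMUSG00000068036, chromosome 17 from 13980555 to 14126680) encodes afadin, which joins nectins to actin. It had 254, 140, and 219 counts in the TEff cells and 623, 552, and 535 in the TRM-like cells, or 10.3 ± 2.77 against 25.3 ± 1.63 CPM (SD, n = 3 each). All TRM-like samples were above all TEff samples, with a log2 fold change of 1.30 (standard error 0.20), although the call was lost without TEff replicate 1, where the log2 fold change was 1.41.

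*Vcl* (ENSMUSG00000021823, chromosome 14 from 20979449 to 21083758) encodes vinculin, which reinforces both cadherin and integrin contacts under tension. It had 192, 176, and 160 counts in the TEff cells and 57, 70, and 117 in the TRM-like cells, or 8.84 ± 0.0654 against 3.65 ± 1.54 CPM (SD, n = 3 each). Every TRM-like sample was below every TEff sample, and replicate 3 was the closest of them to the TEff cells. The log2 fold change was -1.28 (standard error 0.28), and -1.68 (standard error 0.17) without replicate 3. That was the only one of 6 fits with 1 sample left out in which *Vcl* was still called, and it was not called with library totals alone. Exons of *Vcl* and of *Ap3m1* on the opposite strand share 2104 bases, and the strand setting of the counting was not given.

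*Tjp1* (ENSMUSG00000030516, chromosome 7 from 64945898 to 65177529) encodes ZO-1, the scaffold that joins tight junctions, and early adherens junctions, to actin. It had 7, 27, and 23 counts in the TEff cells and 1548, 1466, and 669 in the TRM-like cells, or 0.320, 1.37, and 1.27 against 67.5, 64.0, and 30.9 CPM. The groups were far apart, as they were for *Cdh1*, but the TRM-like samples differed, with replicate 3 lowest. The means were 0.986 ± 0.579 and 54.1 ± 20.2 CPM (SD, n = 3 each), a ratio of 54.9. The log2 fold change was 5.80 (standard error 0.48), and 6.08 (standard error 0.26) without replicate 3.

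**Figure D1:**
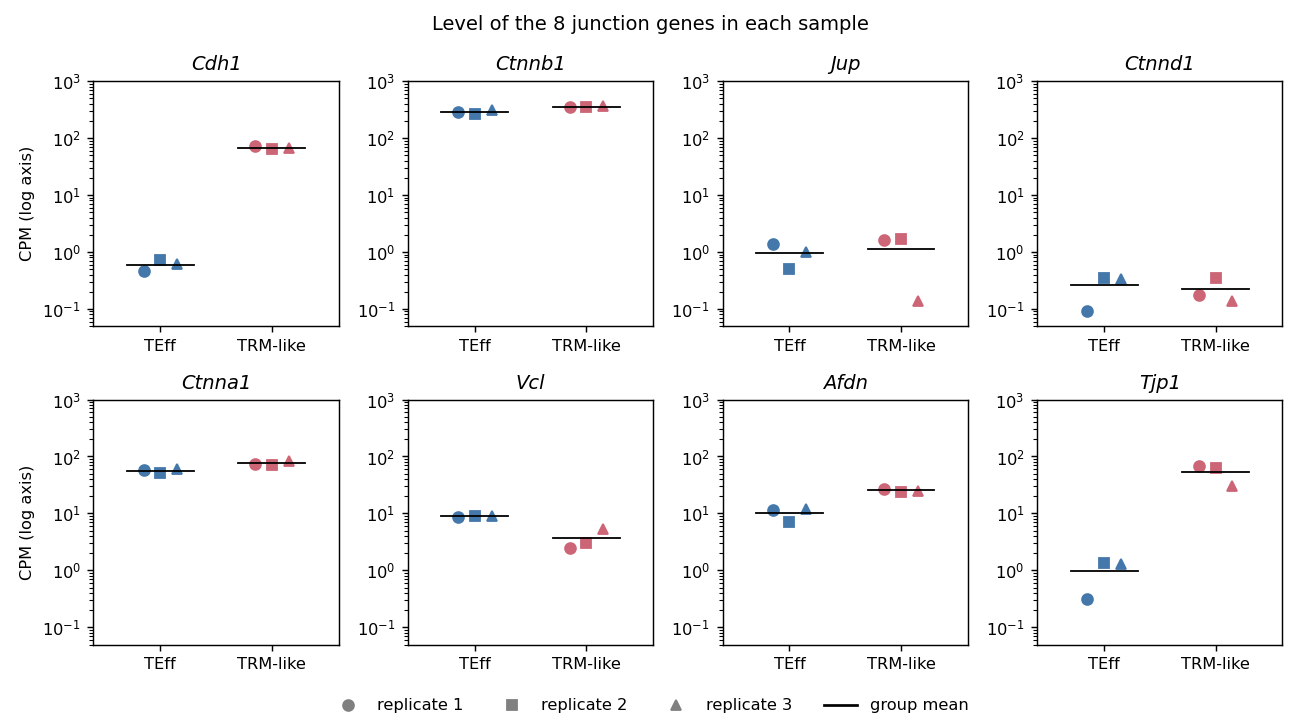
Level (CPM, log axis) of the 8 junction genes in each sample, with 1 point per replicate and a line at the mean of each group. *Cdh1* and *Tjp1* are more than an order of magnitude apart between TEff and TRM-like cells, *Afdn* is higher, *Vcl* is lower, *Ctnnb1* and *Ctnna1* are slightly higher without overlap, and *Jup* and *Ctnnd1* overlap.

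A gene was called where edgeR's quasi-likelihood test gave an adjusted p under 0.05 and a log2 fold change larger than 0.58 in either direction. By this rule 3 of the 8 genes were called higher in the TRM-like cells and 1 was called lower. Among the 26154 genes tested, 1.52% were called higher and 1.48% lower. All TRM-like samples were above all TEff samples for 5 of the 8, and below for 1, against 10.6% and 9.71% of all genes. Since the genes were chosen with this contrast known, nothing is read from these counts. The median log2 fold change of the 8 was 0.37, and that of all genes tested was 0.02. By log2 fold change among the 398 genes called higher, *Cdh1* ranked 11, *Tjp1* ranked 17, and *Afdn* ranked 235.

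Per length (FPKM, the CPM divided by the deposited gene length in kilobases), *Cdh1* and *Tjp1* moved up the order of the genes between the groups, and *Afdn* and *Vcl* changed places. In the TEff cells the mean levels ran from *Ctnnb1* at 79.2 FPKM and *Ctnna1* at 15.1 through *Vcl* at 1.68, *Afdn* at 1.30, *Jup* at 0.297, *Tjp1* at 0.139, and *Cdh1* at 0.134 to *Ctnnd1* at 0.0403. Neighbors from *Jup* to *Cdh1* overlapped between samples and their order is not resolved. In the TRM-like cells *Ctnnb1* at 97.9 FPKM and *Ctnna1* at 20.2 still led, followed by *Cdh1* at 15.3, *Tjp1* at 7.62, *Afdn* at 3.20, *Vcl* at 0.692, *Jup* at 0.353, and *Ctnnd1* at 0.0343. There the samples of *Vcl* and *Jup*, and of *Jup* and *Ctnnd1*, overlapped. Among 14484 coding genes, the level of *Cdh1* was above 19.1% in the TEff cells and above 77.0% in the TRM-like cells.

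The levels of the cadherin and its partners can also be set against each other within a sample. The FPKM of *Cdh1* over that of *Ctnna1* was 0.0067, 0.0115, and 0.00864 in the TEff cells and 0.847, 0.753, and 0.678 in the TRM-like cells. *Cdh1* RNA was thus far below αE-catenin RNA in the TEff cells and a little below it in the TRM-like cells. The ratio of *Ctnnb1* to *Ctnna1*, by contrast, stayed between 4.5 and 5.33 in all 6 samples, and that of *Cdh1* to *Ctnnb1* was 0.147 to 0.171 in the TRM-like cells.

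Each gene was next set beside its closest relatives, in families that were put together after the values had been seen. *Cdh1* made up 4.08, 6.25, and 6.23% of the summed FPKM of the 23 CDH cadherin genes in the TEff cells and 85.3, 83.7, and 88.9% in the TRM-like cells. The sum itself went from 2.20 to 2.56 FPKM in the TEff samples to 16.8 to 19.3 FPKM in the TRM-like samples. The leading cadherin of the TEff cells was *Cdh24*, another classical cadherin, at 6.22 ± 0.635 CPM against 5.65 ± 0.542 CPM in the TRM-like cells (SD, n = 3 each). *Cdh3*, the P-cadherin gene beside *Cdh1* on chromosome 8, had 0 counts in each TEff sample and 2, 5, and 4 in the TRM-like samples, where the background would give it 2.34, 2.53, and 0.212 counts.

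*Tjp3*, which encodes ZO-3, a relative of ZO-1, was at 20.0 ± 0.161 CPM in the TEff cells and 28.6 ± 5.39 CPM in the TRM-like cells (log2 fold change 0.52, adjusted p = 0.163 from edgeR's test). Without TRM-like replicate 3 it was called higher, at 0.65 (adjusted p = 0.000973). In the catenin families a single gene led in both groups. *Ctnnb1* was at least 99.5% of the sum of *Ctnnb1* and *Jup*, *Ctnna1* was at least 99.6% of the α-catenins, and *Pkp4* was 56.8 to 84.6% of the p120 family, of which *Ctnnd1* never exceeded 0.71%. The shares of the p120 family depend on the counts of *Ctnnd1*, which are uncertain as stated above.

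**Figure D2:**
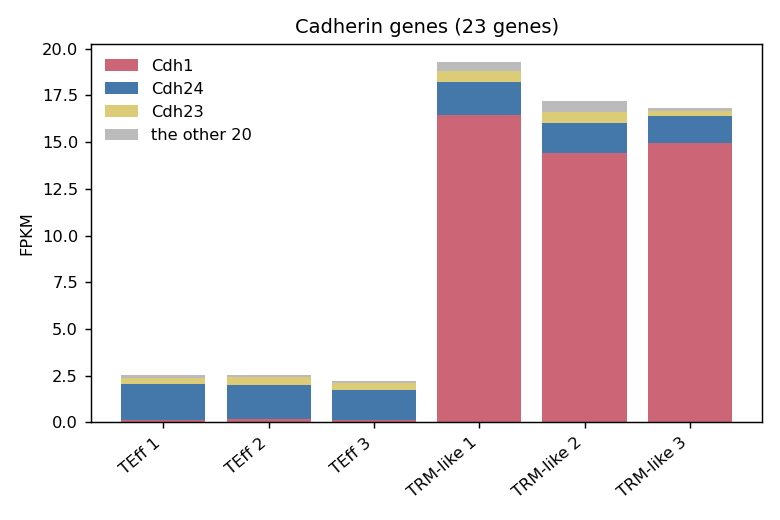
Summed FPKM of the 23 CDH cadherin genes in each of the 6 samples, as stacked bars colored by gene. *Cdh1* is a thin sliver of a sum near 2.5 FPKM in the TEff cells and 83.7 to 88.9% of the sum in the TRM-like cells, and *Cdh24* is the largest segment in the TEff cells.

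The junction genes differed in how TRM-like replicate 3 compared with replicates 1 and 2. For *Cdh1*, the log2 ratio of replicate 3 to the mean of the other two was -0.05, and for *Afdn* it was -0.06. For *Tjp1* it was -1.09, for *Vcl* 0.96, and for *Jup* -3.57. Over the 398 genes called higher, the median was -0.38 with quartiles of -0.94 and -0.04, so that replicate 3 was lower at most of these genes. *Cdh1* and *Afdn* were among the 115 (28.9%) that lay within 0.25 of 0, and *Tjp1* lay below the lower quartile. What sets replicate 3 apart was not tested.

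**Figure D3:**
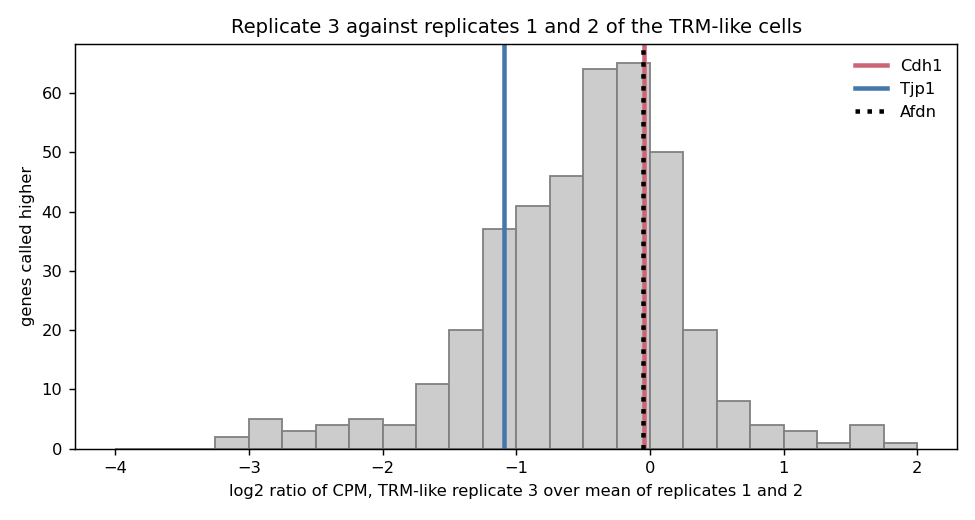
Histogram of the log2 ratio of CPM in TRM-like replicate 3 over the mean of replicates 1 and 2, for the 398 genes called higher, with vertical lines at *Cdh1*, *Tjp1*, and *Afdn*. The bars center below 0, the *Cdh1* and *Afdn* lines nearly coincide just below 0, and the *Tjp1* line lies at -1.09.

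Of the 3 genes for receptors by which lymphocytes recognize E-cadherin on other cells, only *Itgae* was called. Over all genes, 1.52% were called higher and 1.48% lower. *Itgae*, which encodes the αE chain of CD103, was at 22.9, 30.0, and 20.1 CPM in the TEff cells and at 707, 742, and 284 CPM in the TRM-like cells (log2 fold change 4.57, adjusted p = 0.000447 from edgeR's test). Its groups were far apart, with replicate 3 the lowest of the TRM-like samples, as for *Tjp1*. *Itgb7*, the β7 chain that pairs with it, was at 427, 462, and 431 CPM against 270, 309, and 504 CPM and was not called (log2 fold change -0.28, adjusted p = 0.627). Without replicate 3 it was called lower, at -0.61 (adjusted p = 0.00143). *Klrg1* had 1, 3, and 3 counts in the TEff cells and 1, 5, and 0 in the TRM-like cells, too few to show a difference at this depth.

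Nectins are immunoglobulin-like adhesion proteins that afadin binds, and several of their relatives are receptors on T cells. Of 12 such genes tested, 3 were called higher and 0 lower, beside 1.52% and 1.48% of all genes. The list was chosen with these results known, so nothing is read from that count. *Cd96*, an adhesion receptor on T cells that binds the nectin-like protein CD155, was at 181 ± 7.76 against 504 ± 161 CPM (log2 fold change 1.48, adjusted p = 0.0107). *Cd226*, which encodes DNAM-1 and binds CD155 and nectin-2, was at 51.3 ± 12.4 against 145 ± 54.5 CPM (log2 fold change 1.50, adjusted p = 0.0306; SD, n = 3 in each group). *Tigit*, the inhibitory receptor of the same ligands, was not called (log2 fold change -0.49, adjusted p = 0.489), nor was *Pvr*, the gene of CD155 (-0.26, adjusted p = 0.528). *Nectin3*, a partner of afadin, was called higher with 2, 1, and 1 counts against 7, 13, and 21 (adjusted p = 0.0449). The background would give it 6.1 and 6.59 counts in TRM-like replicates 1 and 2 and 0.551 in replicate 3. Without replicate 3 *Nectin3* was still called, at a log2 fold change of 2.59 (adjusted p = 0.0197), but it was called in only 2 of 6 fits with 1 sample left out and was not called by limma-voom. *Cd226* was called in 1 of those 6 fits, the one without TRM-like replicate 3, and had adjusted p of 0.0744 to 0.182 in the others, and *Cd96* was called in 3 of 6 and not without any one TEff sample (adjusted p of 0.0695 to 0.0893).

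The counts of calls in the lists below stand beside 1.52% of all genes called higher and 1.48% called lower. Of 17 other cadherins and 9 other catenins and armadillo proteins tested, 0 were called in either direction by edgeR's test. The cadherins with the smallest p were *Clstn1* (log2 fold change 0.45, adjusted p = 0.136) and *Celsr2* (-0.71, adjusted p = 0.319). Among the catenin relatives these were the plakophilins *Pkp2* (log2 fold change 1.28, adjusted p = 0.106) and *Pkp3* (0.60, adjusted p = 0.182). Both plakophilins were above all TEff values in each TRM-like sample and passed the test without replicate 3, at 1.59 (adjusted p = 4.96e-05) and 0.79 (adjusted p = 0.000139). In that fit 2 of 15 other cadherins were called higher as well, among them *Cdh23* (0.60, adjusted p = 0.0342). Over all genes in the same fit, 1625 of 25478 were called higher, so the shares above do not apply to it. Its TRM-like samples are replicates 1 and 2, which carry the background on silent genes, and nothing is read from this count.

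Of 25 actin linkers tested, 1 was called higher and 1 lower. *Vasp*, which promotes actin filament growth, was at 229 ± 5.33 against 390 ± 57.6 CPM (SD, n = 3 each; log2 fold change 0.77, adjusted p = 0.0272). *Plekha7*, which ties p120 catenin to microtubules, was at 3.00 ± 0.499 against 1.00 ± 0.41 CPM (log2 fold change -1.58, adjusted p = 0.0396). Of 20 tight junction genes tested, only *Cldnd1*, a claudin-like membrane protein, was called, at 17.7 ± 1.52 against 42.1 ± 2.15 CPM (log2 fold change 1.25, adjusted p = 0.0014). Of 6 desmosome genes, only *Dsp*, the desmoplakin gene, was called, with 13, 11, and 18 counts against 57, 59, and 36 (log2 fold change 1.65, adjusted p = 0.0355). *Vasp*, *Plekha7*, and *Dsp* were each called in only 1 of 6 fits with 1 sample left out, the one without TRM-like replicate 3, while *Cldnd1* was called in all 6. In the other 5 fits the adjusted p was 0.107 to 0.183 for *Vasp*, 0.0993 to 0.212 for *Plekha7*, and 0.0750 to 0.203 for *Dsp*. Without replicate 3, 5 of 25 actin linkers were called higher and 2 lower. For 18 tight junction genes these counts were 4 and 1, and for 6 desmosome genes 2 and 1. Over all genes in that fit they were 1625 and 1954 of 25478. The desmosome gene called lower there was the desmoglein gene *Dsg2* (-1.01, adjusted p = 0.0341). With all 6 samples, the median log2 fold changes of these 3 lists were 0.27, 0.28, and 0.60, beside 0.02 for all genes.

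Genes listed for the cleavage and turnover of E-cadherin, not all of them enzymes, were tested as 12 genes, of which 0 were called higher and 2 lower. *Psen2*, a catalytic subunit of γ-secretase, was at 27.0 ± 1.99 against 12.6 ± 2.45 CPM (log2 fold change -1.10, adjusted p = 0.00958). *Adam15*, a membrane metalloprotease, was at 5.85 ± 1.58 against 2.15 ± 0.161 CPM (log2 fold change -1.44, adjusted p = 0.0149). Each was called in 3 of 6 fits with 1 sample left out, and the adjusted p was 0.0562 to 0.0699 for *Psen2* without any one TEff sample, and 0.0692 to 0.0974 for *Adam15* without TEff replicate 1, TEff replicate 3, or TRM-like replicate 2. *Adam10*, the sheddase best known for E-cadherin, was not called, with a log2 fold change of -0.17 (adjusted p = 0.682).

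**Figure D4:**
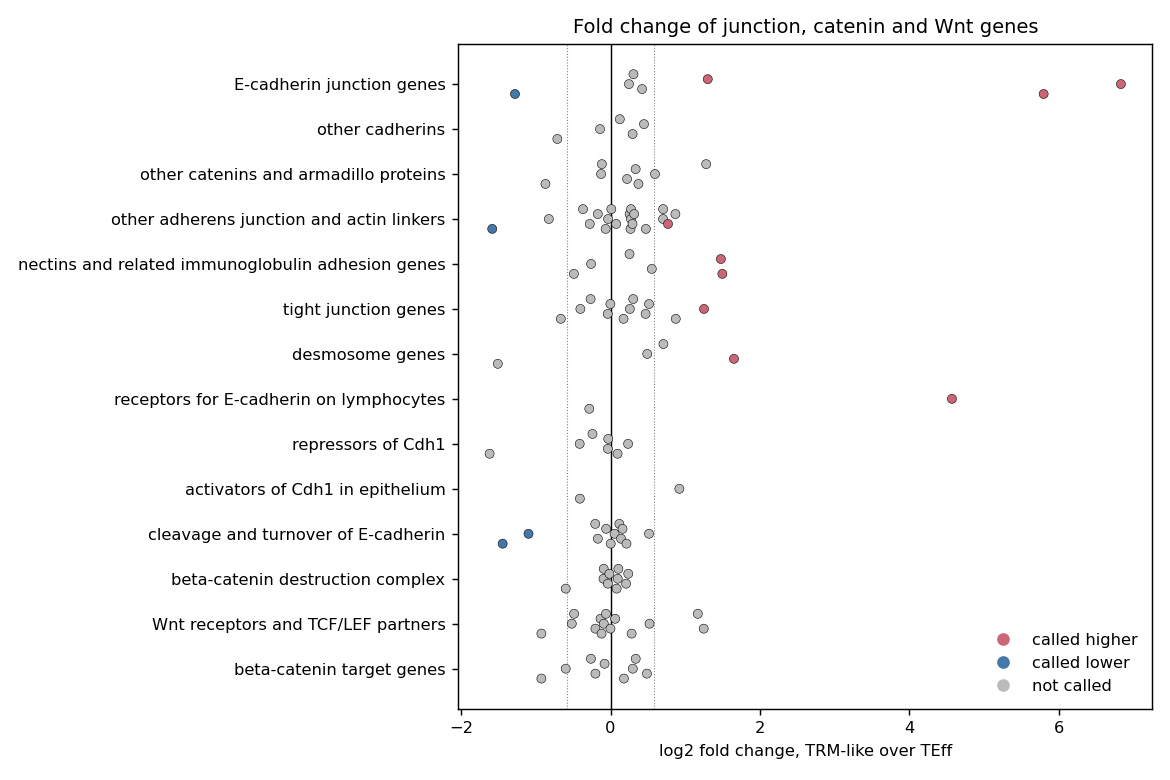
Log2 fold change (TRM-like over TEff) of the junction genes and of the related gene lists, with 1 point per gene, colored by call, and dotted lines at 0.58 in either direction. The plot is limited to genes that reached 10 counts in each sample of a group (7 of the 8 junction genes and 108 of the 160 others tested, so not *Ctnnd1* or *Nectin3*), and a gene on more than 1 list is drawn in each. *Cdh1*, *Tjp1*, and *Itgae* lie far to the right, and the remaining points lie between -2 and 2.

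The known repressors of *Cdh1* transcription, which bind the E-boxes shown above or act with factors that do, were tested where they had enough counts. Of 8 tested out of 11, 0 were called in either direction. *Zeb1* was at 36.1 ± 4.69 CPM in the TEff cells and 38.6 ± 6.51 CPM in the TRM-like cells (log2 fold change 0.09, adjusted p = 0.847), and *Snai3* was at 14.6 ± 0.149 and 14.3 ± 1.98 CPM (-0.03, adjusted p = 0.953). *Zeb2* was at 2.61, 1.52, and 1.99 CPM in the TEff cells and at 0.829, 1.05, and 0.0922 CPM in the TRM-like cells. All TRM-like values of *Zeb2* were below all TEff values, but the difference did not pass the test (log2 fold change -1.62, adjusted p = 0.223). Without replicate 3, *Zeb2* (-1.13, adjusted p = 0.0262) and *Ezh2* (-0.72, adjusted p = 0.000922) were called lower. *Tcf3* (-0.24, adjusted p = 0.396) and *Tcf4* (0.24, adjusted p = 0.629), E proteins that bind the same letters, were not called, and *Snai2* had 0 counts in every sample. Of 9 epithelial regulators tested, not all of which act on transcription, 0 were called, and the best measured were *Grhl1* (0.92, adjusted p = 0.305) and *Esrp2* (-0.41, adjusted p = 0.676).

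β-catenin that is free of cadherin is either degraded by a destruction complex or acts as a coactivator, and both arms were examined. Of 10 genes of the destruction complex, 18 Wnt receptors and TCF/LEF partners, and 14 target genes tested, 0 were called in either direction. *Axin2*, a member of the complex and itself a target, was at 8.55, 9.16, and 8.07 CPM in the TEff cells and at 5.02, 4.67, and 7.33 CPM in the TRM-like cells (log2 fold change -0.60, adjusted p = 0.214). *Lef1* was at 90.1, 128, and 87.7 CPM against 56.5, 64.8, and 39.7 CPM (-0.93, adjusted p = 0.0606). For both genes every TRM-like sample was below every TEff sample without passing the test, and without replicate 3 both were called lower (*Axin2* -0.84, adjusted p = 0.00221; *Lef1* -0.76, adjusted p = 0.00384). *Tcf7*, the gene of TCF1, overlapped between the groups (-0.20, adjusted p = 0.821), as did *Rnf43* (0.34, adjusted p = 0.559). *Myc* (0.18, adjusted p = 0.581), *Gsk3b* (0.24, adjusted p = 0.501), and *Pygo2* (-0.52, adjusted p = 0.065) were not called either.

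Over the 160 genes tested on these related lists, 7 were called higher and 3 lower, of which *Itgae* and *Cldnd1* were called in all 6 fits with 1 sample left out. Without TRM-like replicate 3 these counts were 21 and 11 of 154. Those over all genes went from 398 and 388 of 26154 to 1625 and 1954 of 25478. The lists were chosen with earlier results known, so nothing is read from these counts. The 3 junction genes called higher and the 1 called lower were also called without TRM-like replicate 3.

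The genes whose profile over the 6 samples was most like that of *Cdh1* were *Tgfb3*, *Spsb1*, *Ahrr*, *Apol9a*, and *Tjp1*. Likeness was the root mean square difference of log2 CPM, each centered on its TEff mean, and ran from 0.541 for *Tgfb3* to 0.83 for *Tjp1*. *Tgfb3*, which encodes a TGF-β ligand, was at 0.503, 0.658, and 0.553 CPM in the TEff cells and at 84.0, 82.3, and 27.6 CPM in the TRM-like cells. Its order of magnitude matched that of *Cdh1*, but its replicate 3 was lower. *Ahrr*, the repressor of the aryl hydrocarbon receptor, was at 41.2, 43.1, and 19.2 CPM in the TRM-like cells, and *Spsb1* was at 24.9 CPM in replicate 1 and 11.9 CPM in replicate 3. *Apol9a* had 0 counts in all 3 TEff samples. Among genes that reached 10 counts in all 6 samples, *Tgfb3* was again first, and the other 4 were *Ahr*, *Igha*, *Itgae*, and *Iigp1*.

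Markers of other cells were examined because *Cdh1* and *Tjp1* are epithelial genes and some dendritic cells also carry E-cadherin. T cell markers summed to 4860 to 5070 CPM in the TEff samples and 4910 to 6240 CPM in the TRM-like samples. The 20 epithelial markers summed to 46.7 to 53.2 CPM in the TEff samples and 63.3 to 86.1 CPM in the TRM-like samples. Every TRM-like sum was thus above every TEff sum, and 15 of the 20 markers were below 1 CPM in every sample. Most of that sum was *Spint2* and *St14*, and *St14* was called higher (log2 fold change 0.75, adjusted p = 0.0193). The defining *Krt8* had 1 count in TEff replicate 3 and in TRM-like replicate 2 and 0 elsewhere, *Cldn3* was at 0 throughout, and *Epcam* was at 1.87 ± 0.0492 against 3.15 ± 1.14 CPM (log2 fold change 0.75, adjusted p = 0.306, and 1.01, adjusted p = 0.00453, without replicate 3, where *Muc1* was called higher too).

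Dendritic and Langerhans cell markers summed to 72.3 to 90.8 CPM in the TEff cells and 65.8 to 102 CPM in the TRM-like cells, with 7 of 14 below 1 CPM in every sample. Of these, *Cd207*, the langerin gene, had 2 counts in TRM-like replicate 1 and 0 in the other samples. *Ciita*, the coactivator of MHC class II genes, was the marker of this list that was called, with 13, 13, and 15 counts in the TEff cells and 121, 168, and 45 in the TRM-like cells (log2 fold change 2.82, adjusted p = 0.0134). Without replicate 3, *Cd74*, the MHC class II invariant chain gene, was called higher as well (1.30, adjusted p = 0.00507) and the class II gene *H2-Ab1* lower (-0.65, adjusted p = 0.0403). Their part in the level of *Cdh1* was not tested. The macrophage markers summed to 2.77 to 5.11 CPM, the B cell markers to 7.57 to 12.8, the neutrophil and mast cell markers to 0.184 to 1.18, and the stromal and endothelial markers to 0.231 to 2.31 CPM over the 6 samples. CD4 T cell and innate lymphocyte markers summed to 187 to 318 CPM in the TEff cells and 50.6 to 172 CPM in the TRM-like cells. T cell markers were present in every sample, and whether other cells contributed to the 67.6 CPM of *Cdh1* in the TRM-like cells was not tested.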

How the data were processed

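RNA from 6 samples (TruSeq Stranded Total RNA) was sequenced. The authors trimmed reads with Cutadapt 4.8, mapped and counted them with Rsubread on GENCODE M34 and GRCm39, and deposited the raw counts with, as another column, gene length in bases; strand setting and treatment of multi-mapped reads are not given in the sources used here. Symbols and coordinates came from GENCODE M39 on GRCm39, in which 56620 of 57126 genes were found.

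Groups followed the sample titles. Genes with a count of 1 or more in 3 or more samples were tested with edgeR 4.0.16 in R 4.3.3 (TMM, glmQLFit, glmQLFTest, Benjamini-Hochberg adjustment over all genes). A gene was called where the adjusted p was under 0.05 and the log2 fold change larger than 0.58 in either direction. Standard errors are the log2 fold change divided by the square root of F. The authors removed a batch that they do not name for plots, and none was removed here. On simulated data with 26141 genes, edgeR recovered 34% of genes changed 2-fold and 91% of those changed 4-fold, with 4.58% false among its calls. Each simulated gene was drawn independently, and only genes averaging at least 10 counts were changed. No simulated sample departed from its group as TRM-like replicate 3 did, so these rates may not hold for the real samples.

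The junction genes and all gene lists were chosen with earlier results of these data known. Named genes were the 8 junction genes, the 3 E-cadherin receptors, *Tcf7*, *Lef1*, *Zeb1*, *Zeb2*, and *Snai3*, per list every called gene and up to 4 genes of smallest p with at least 10 counts in every sample of a group, and the 5 genes most like *Cdh1*, of which not all are printed. *Adam10*, *Cdh3*, *Snai2*, *Pkp4*, *Gm28635*, *Ap3m1*, and the single marker genes were named after their values were seen. Alternatives were DESeq2 1.42.0, limma-voom (limma 3.58.1), other scalings and filters, a replicate block, TPM for levels, and each sample left out. One gene of these lists is not reported here.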

Additional observations from a re-analysis of the deposited data

How the results depend on the processing

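The values of *Cdh1* and *Tjp1* were stable: in the fits that tested them, *Cdh1* had log2 fold changes of 6.67 to 6.99 and *Tjp1* of 5.36 to 6.13, and both were called in each. Of 113 values of the junction genes under the alternatives, 112 moved by less than the spread between replicates, and 1 (*Vcl* without TRM-like replicate 3) moved further. A change of scaling or the loss of 1 sample can rarely move a value by more than that spread, so this count does not show stability. Over these fits *Jup* ran from -0.24 to 0.75 and *Ctnnd1* from -0.68 to 0.11. *Vcl* was called in 1 of 6 fits with 1 sample left out. Junction genes called higher numbered 2 to 3 with a sample left out (2 without TEff replicate 1), and 2 where 10 counts were required in each sample, a filter that *Tjp1* did not pass. Junction genes called lower numbered 0 with library totals alone and 0 to 1 with a sample left out. Of 800 values of the other named genes, 34 fell short of the threshold, 33 newly passed it, and 0 called values changed sign. Over all genes, 398 higher and 388 lower became 668 and 588 with DESeq2, 1002 and 866 with no filter, and 119 to 1625 and 144 to 1954 with a sample left out. The cause of these shifts was not tested. The replicate number as a block gave 955 and 1079, and 443 and 460 over genes that reached 10 counts in all 6 samples, a choice made after seeing the data. Same-numbered samples had correlations of -0.237, 0.23, and 0.307 in their deviations from the group means. The highest, 0.443, joined TEff replicate 2 and TRM-like replicate 1. Deviations within a group of 3 depend on each other, so these values cannot decide whether the numbers pair the samples. The order of levels was the same in TPM. With 3 samples per group, changes near 2-fold are often missed, and *Jup* and *Ctnnd1* are limited by their low counts. Those of *Ctnnd1* are also uncertain because it shares exon bases with *Gm28635*.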
